A study of Mus musculus with 6 samples.

Results

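The insulin-like growth factor (IGF) axis was examined in 2 sorted cell populations of the neonatal mouse prostate. Its 10 genes were the ligands Igf1 and Igf2, the receptors Igf1r and Igf2r, and the binding proteins Igfbp2, Igfbp3, Igfbp4, Igfbp5, Igfbp6 and Igfbp7. They were matched by name to the annotation of the array and are 10 of the 36163 names printed there. The choice of genes was made with earlier results of these data known. The array holds 15 probes for them, of 55681 probes in all: 5 for Igf1, 2 for Igfbp2 and 1 for each of the other genes.

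The cells came from prostates of 6-day-old (P6) male FVB/N mice carrying the Tg 11.5kb-GFP transgene, in which a promoter of s-SHIP drives GFP, and no mouse was treated. Cells negative for the lineage antigens Ter119, CD31 and CD45 and positive for Sca-1 and CD49f (LSC cells) were sorted into LSC GFP+ and LSC GFP-, so that both populations carry the transgene and share the gate. Each population is represented by 3 samples on one-colour arrays, and the sources used here do not say how many animals went into a sample. Vascular smooth muscle cells of this line also carry high GFP, and the study describes them as low in Sca-1 and CD49f.

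IGF1 and IGF2 are secreted ligands that signal through the tyrosine kinase IGF1R, which acts through insulin receptor substrates on the PI3K and Akt route. IGF2R carries no kinase and clears IGF2 from the cell surface. The binding proteins hold the ligands outside the cell, which can limit or prolong their action, and proteases such as PAPP-A release them. In the developing prostate the ligands are known mainly as products of the mesenchyme around the epithelial buds.

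Values are log2 signals relative to the 75th percentile of their array, so 0 is the signal that 75% of spots do not exceed. They compare arrays for the same probe and do not rank one gene against another. A probe was called higher or lower when limma gave an unadjusted p under 0.05, the threshold of the study's methods, and the p-values printed beside each probe are adjusted. All 15 probes of the axis passed the filter on dim probes and were tested, and 13 of them were well above background on all 6 arrays. After Benjamini-Hochberg adjustment over the 37005 probes tested with limma, 1 probe of the whole array (0.0027%) and 0 of the 15 probes of the axis passed 0.05, while 7 of the 15 had an unadjusted p under 0.05, beside 7.9% of all probes tested. The smallest adjusted p in the axis was 0.129. For a single probe whose populations do not overlap, the exact permutation p is 0.1, the smallest that 3 samples against 3 allow. The main fit did not use pairs. In an alternative fit the replicate number paired the samples, and values with the pair as a block are given where they change a call.

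The probes that carry the differences are shown first, each as a stretch of 30 bases of its 60, 5′ to 3′ on the strand of the transcript. The first 5 belong to Igf1, which produced both called and uncalled probes, and the last 2 to Igfbp3 and Igfbp4, whose probes were higher in LSC GFP+ cells. Capitals mark the 20 printed bases that 2 neighbouring Igf1 probes have in common. Those 2 probes start 20 bases apart and share 40 bases in all, so they are not independent readings.
Igf1 A_55_P2085979: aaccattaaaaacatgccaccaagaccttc
Igf1 A_55_P2085984: aacaataataAGTCCAATAACATTACAAAG
Igf1 A_55_P2031631: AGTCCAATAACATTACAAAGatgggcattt
Igf1 A_55_P2031636: agaaatgtaaatggaataagaggtcagctg
Igf1 A_55_P2085974: ctcctgattgtatttgaagtggttattcaa
Igfbp3 A_52_P253179: gcagttttccaaaaacacagatttcttttc
Igfbp4 A_52_P257502: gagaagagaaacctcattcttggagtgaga

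In the coordinates of mm9, which the array design uses, the Igf1 probes lie on the plus strand in the order printed. A_55_P2085979 is at chr10:87378456-87378515 and is assigned by the design to a different transcript record of Igf1 from the other 4. A_55_P2085984 is at chr10:87393561-87393620, which is 15105 bases downstream, and A_55_P2031631 is at chr10:87393581-87393640. A_55_P2031636 at chr10:87395924-87395983 and A_55_P2085974 at chr10:87399581-87399640 follow, the last starting 21125 bases from the first. The Igfbp3 probe is at chr11:7106594-7106653 on the minus strand and the Igfbp4 probe at chr11:98913334-98913393 on the plus strand. The design names the gene of each probe but not the exon or UTR. The G and C content of the Igf1 probes was 35% for 3 of them, 36.7% for A_55_P2085979 and 45% for A_55_P2031636, beside a median of 43.3% over all probes of the array.

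The Igf1 signal had a lower mean in LSC GFP+ cells at all 5 probes and was called lower at 4 of them. It was 2.07-fold to 3.77-fold lower at the 3 called probes that were above background on all 6 arrays. The brightest probe did not pass the test. With normexp background correction the 4 calls held, and those 3 folds were 1.70 to 2.39. A_55_P2085984 read -2.92, -3.01 and -2.67 in LSC GFP+ replicates 1, 2 and 3, and -0.54, -1.85 and -0.47 in LSC GFP- replicates 1, 2 and 3. Every LSC GFP+ value lay below every LSC GFP- value, and LSC GFP- replicate 2 was the nearest to them. The log2 difference was -1.91 (SE 0.37, n = 3 per population), a 3.77-fold lower signal in LSC GFP+ cells, with adjusted p = 0.139 in limma.

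The overlapping probe A_55_P2031631 gave the same order of populations. Its values were -2.08, -2.84 and -2.63 in LSC GFP+ cells and -0.50, -1.89 and -0.60 in LSC GFP- cells, without overlap. The signal was 2.86-fold lower in LSC GFP+ cells (log2 difference -1.52, SE 0.40, limma adjusted p = 0.269). Its 2 spots differed by up to 1.16 on the log2 scale on one array.

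Farther downstream, A_55_P2031636 read -1.50, -2.26 and -1.90 in LSC GFP+ cells and -0.37, -1.40 and -0.74 in LSC GFP- cells. The populations did not overlap, although LSC GFP+ replicate 1 and LSC GFP- replicate 2 lay close together. This probe was called, with a log2 difference of -1.05 (SE 0.32, limma adjusted p = 0.351). A_55_P2085974, the most distant probe, read -3.15, -6.38 and -4.76 in LSC GFP+ cells and -1.88, -3.73 and -2.10 in LSC GFP- cells. Here LSC GFP+ replicate 1 lay above LSC GFP- replicate 2, so the populations overlapped. The fourth called Igf1 probe, it had a log2 difference of -2.19 (SE 0.80, limma adjusted p = 0.495). Among LSC GFP+ arrays only replicate 1 gave a signal well above background, whereas each LSC GFP- array did. With normexp background correction the difference was -0.70. On LSC GFP+ replicate 1 the 2 spots of the probe differed by 2.81. Its call was lost without LSC GFP+ replicate 2 (-1.38), without LSC GFP- replicate 1 (-1.85) and without LSC GFP- replicate 3 (-1.95), and with the methods' t-test.

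A_55_P2085979, the brightest Igf1 probe, read -0.22, -0.13 and -0.85 in LSC GFP+ cells and 0.16, 0.38 and -0.20 in LSC GFP- cells. LSC GFP- replicate 3 lay within the LSC GFP+ range, and LSC GFP- replicate 2, the lowest LSC GFP- array at the other 4 probes, was the highest here. It was not called, with a log2 difference of -0.51 (SE 0.27, 95% confidence interval -1.13 to 0.11, limma adjusted p = 0.760). With the replicate pair as a block it was called (adjusted p = 0.204), the signal being lower in LSC GFP+ cells in 3 of 3 pairs.

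Whether the probes of Igf1 changed by different amounts was tested on each array's difference between a probe and A_55_P2085979, in a limma fit over 11382 such within-gene pairs. The change was more negative than at A_55_P2085979 by 1.40 for A_55_P2085984 (SE 0.56), by 1.01 for A_55_P2031631 (SE 0.54), by 0.54 for A_55_P2031636 (SE 0.44) and by 1.68 for A_55_P2085974 (SE 0.99). The first of these was past the unadjusted threshold and the other 3 were not. It lost the threshold without LSC GFP+ replicates 1 or 2 or LSC GFP- replicates 1 or 3, with values of -1.29 to -1.004 (LSC GFP+ minus LSC GFP-), and with normexp and quantile normalization. With normexp the fourth was -0.29. After adjustment 0 of the 4 passed (smallest adjusted p = 0.923), and the exact permutation p-values, two-sided, were 0.2 to 0.3 (0.3 for each when adjusted over the 4).

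**Figure D1:**
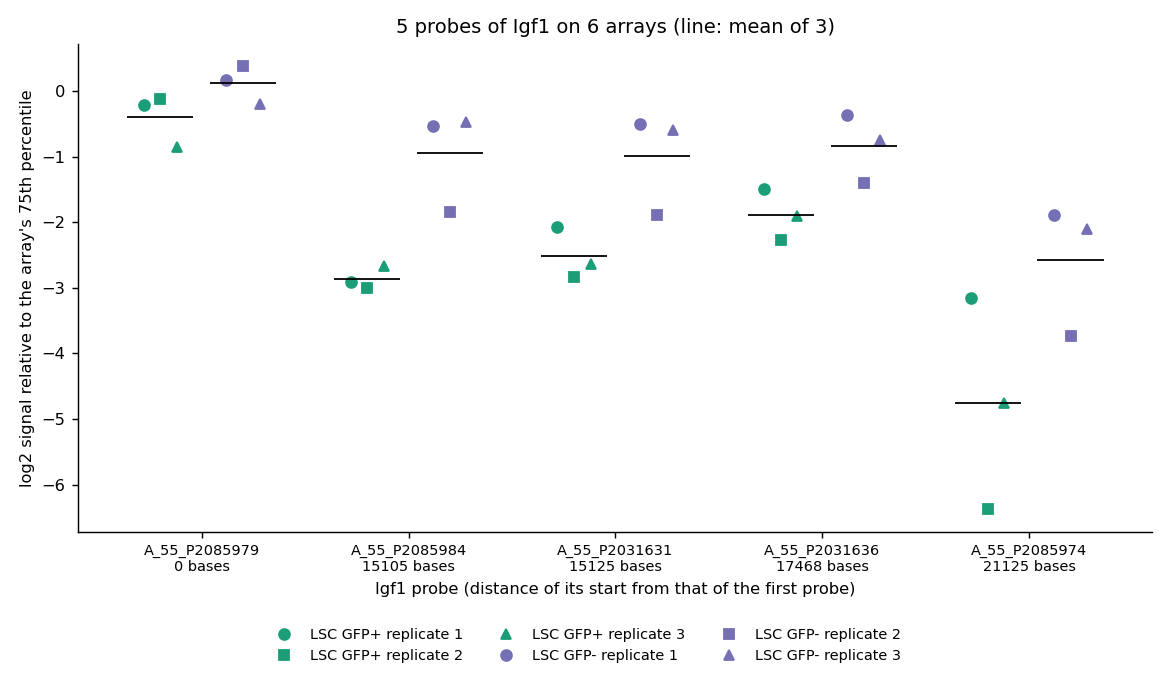
The log2 signal of the 5 Igf1 probes relative to each array's 75th percentile (vertical axis), ordered along the chromosome with the distance of each start from the first (horizontal axis), with green for LSC GFP+ and purple for LSC GFP-, 1 symbol shape per replicate and a line at the mean of 3. The 3 middle probes part the populations without overlap, and LSC GFP- replicate 2 is the lowest purple point at each of the last 4 probes.

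Igf2, the other ligand, had a lower mean in LSC GFP+ cells but did not pass the test. Its probe at chr7:149839661-149839720 on the minus strand read 0.84, 2.16 and 3.10 in LSC GFP+ cells and 3.00, 2.75 and 4.01 in LSC GFP- cells. The LSC GFP+ arrays spanned more than 2 log2 units, and replicate 3 reached into the LSC GFP- range. Their means differed by -1.22 (SE 0.57, 95% confidence interval -2.54 to 0.10, limma adjusted p = 0.687). With the replicate pair as a block Igf2 was called (adjusted p = 0.207), lower in LSC GFP+ cells in 3 of 3 pairs. Without LSC GFP+ replicate 1 the difference was -0.62.

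Neither receptor passed the test. Igf1r, at chr7:75378461-75378520, read -0.23, 0.01 and -0.71 in LSC GFP+ cells and -0.17, -0.03 and -0.30 in LSC GFP- cells. The LSC GFP- values lay inside the LSC GFP+ range, and the log2 difference was -0.14 with a 95% confidence interval of -0.69 to 0.41 (limma adjusted p = 0.996). Igf2r read 4.34, 4.63 and 4.38 in LSC GFP+ cells and 4.45, 4.63 and 4.36 in LSC GFP- cells. Replicate 2 was the highest array of both populations, and the difference of -0.03 had a 95% confidence interval of -0.48 to 0.42 (limma adjusted p = 0.996). The Igf2r probe was printed in 10 spots, whose SD on an array was 0.040 to 0.067, well under the spread between arrays. The design places 11 of its 60 bases, at chr17:12875253-12875263.

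**Figure D2:**
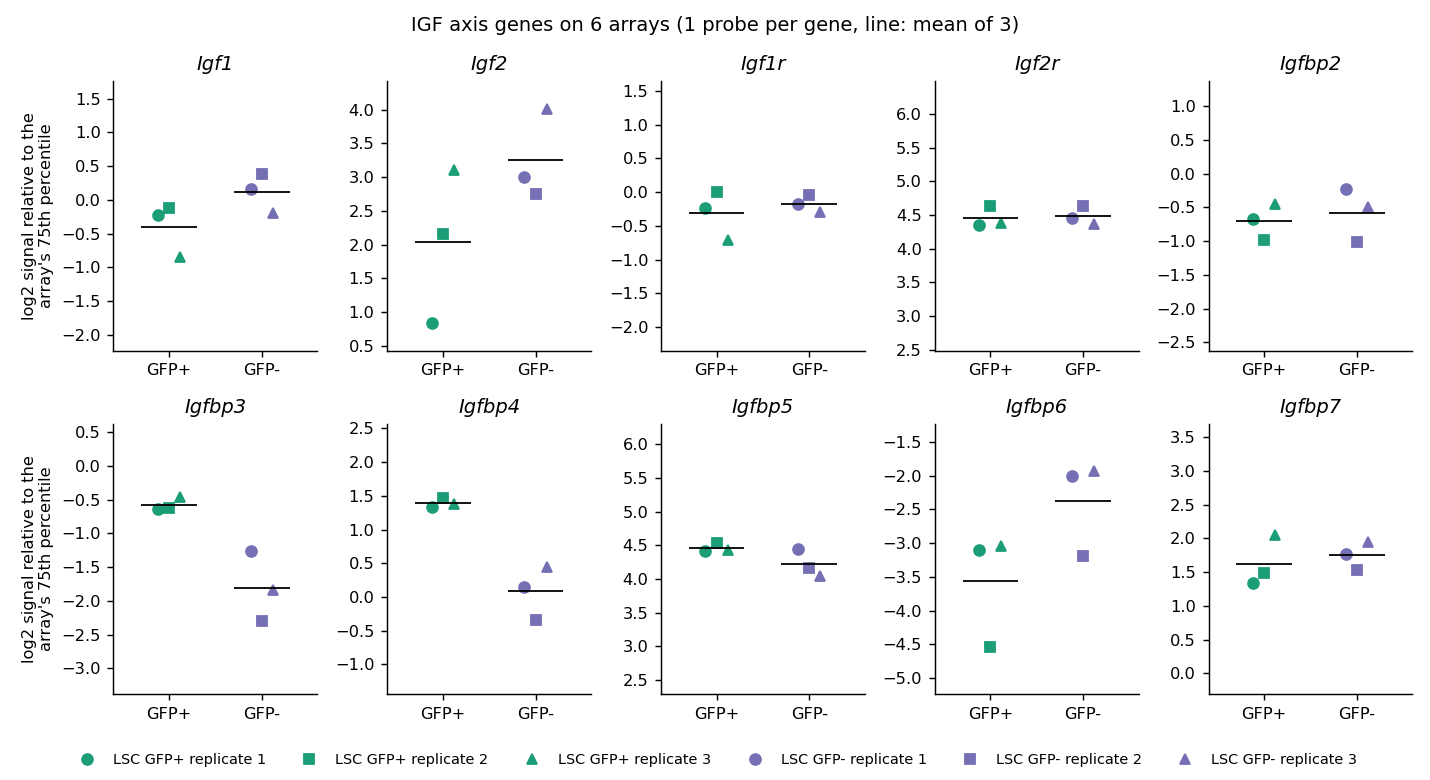
The log2 signal relative to each array's 75th percentile (vertical axis, spanning 4 units in every panel) of the brightest probe of each of the 10 genes in LSC GFP+ (green) and LSC GFP- (purple) samples, with 1 symbol shape per replicate and a line at the mean of 3. Igfbp3 and Igfbp4 are the panels in which the populations do not overlap, both with LSC GFP+ above.

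The binding proteins moved in both directions. Of the 6, Igfbp3 and Igfbp4 were higher in LSC GFP+ cells, Igfbp6 was lower, and Igfbp2, Igfbp5 and Igfbp7 did not pass the test. Igfbp4, which is a substrate of PAPP-A, read 1.34, 1.46 and 1.38 in LSC GFP+ cells and 0.15, -0.34 and 0.44 in LSC GFP- cells. The LSC GFP+ arrays lay close together and above every LSC GFP- array. The signal was 2.48-fold higher in LSC GFP+ cells (log2 difference 1.31, SE 0.24, limma adjusted p = 0.129).

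Igfbp3, the main carrier of IGFs in serum, read -0.64, -0.62 and -0.46 in LSC GFP+ cells and -1.27, -2.30 and -1.84 in LSC GFP- cells. The populations were again apart, with the wider spread in LSC GFP- cells. The signal was 2.34-fold higher in LSC GFP+ cells (log2 difference 1.23, SE 0.28, limma adjusted p = 0.192). The calls of Igfbp3 and Igfbp4 held without each of the 6 arrays in turn, with differences of 0.98 to 1.49 and 1.10 to 1.49. With normexp background correction both calls held, at 0.84 (1.79-fold) for Igfbp3 and 1.17 (2.25-fold) for Igfbp4.

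Igfbp6, a binding protein with a preference for IGF2, read -3.10, -4.54 and -3.04 in LSC GFP+ cells and -2.01, -3.19 and -1.93 in LSC GFP- cells. Replicate 2 was the lowest array of both populations, and LSC GFP- replicate 2 lay below LSC GFP+ replicates 1 and 3. Igfbp6 was called lower in LSC GFP+ cells, by -1.18 on the log2 scale (SE 0.49, limma adjusted p = 0.598), and was lower in 3 of 3 pairs. The probe, at chr15:101979852-101979911, did not rise well above background on LSC GFP+ replicate 2. Its call was lost without that array (-0.69), without LSC GFP- replicate 1 (-0.997) and without LSC GFP- replicate 3 (-0.96), and under 4 alternative settings. With normexp background correction the call held at a difference of -0.52.

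The other binding proteins gave differences inside the spread between arrays. Igfbp5, at chr1:72904829-72904888 on the minus strand, read 4.41, 4.54 and 4.43 in LSC GFP+ cells and 4.45, 4.17 and 4.05 in LSC GFP- cells (log2 difference 0.24, 95% confidence interval -0.21 to 0.69). Igfbp7, at chr5:77778271-77778330 on the minus strand, read 1.34, 1.48 and 2.04 against 1.77, 1.53 and 1.95 (difference -0.12, 95% confidence interval -0.69 to 0.45). IGFBP7 binds IGFs weakly beside the classical family.

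Igfbp2 was read by a pair of probes on the plus strand of chromosome 1. The brighter, at chr1:72898677-72898736, read -0.67, -0.98 and -0.45 in LSC GFP+ cells and -0.23, -1.02 and -0.49 in LSC GFP- cells. The log2 difference was -0.12, with a 95% confidence interval of -0.73 to 0.49. The other, at chr1:72898813-72898872, read -1.07, -1.97 and -1.15 against -0.93, -2.21 and -1.03, with a 95% confidence interval of the difference of -0.92 to 0.91. Both probes were lowest in replicate 2 of each population.

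Over the axis, 7 of the 15 probes were called, 5 lower and 2 higher in LSC GFP+ cells. Over all probes tested 4.53% were called lower and 3.38% higher, a split that depends on the scaling (1250 higher and 1675 lower here, 1471 and 1299 with array median scaling). With 1 probe per gene, the brightest, 3 of the 10 genes were called, 2 higher and 1 lower, beside 7.66% of the 25613 names tested (3.38% higher and 4.29% lower), and with the replicate pair as a block 5 of the 10, beside 14.2%. The populations did not overlap at 5 of the 15 probes, 3 lower and 2 higher, beside 12.3% of all probes (5.65% lower and 6.61% higher). Igfbp6 and the Igf1 probe A_55_P2085974, both called lower, passed the filter on dim probes only through the LSC GFP- arrays. With all 6 arrays required to be well above background, 5 of 13 probes were called, 3 lower and 2 higher. This compares with 2504 of 33845 probes on the whole array. At the brightest probes 2 of 9 genes were then called, 2 higher and 0 lower. Since 4 of the 7 called probes belong to Igf1 and 2 of these overlap, the count of probes is not a count of independent genes. The median log2 difference was -0.12 over the 10 genes and -0.01 over all names.

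**Figure D3:**
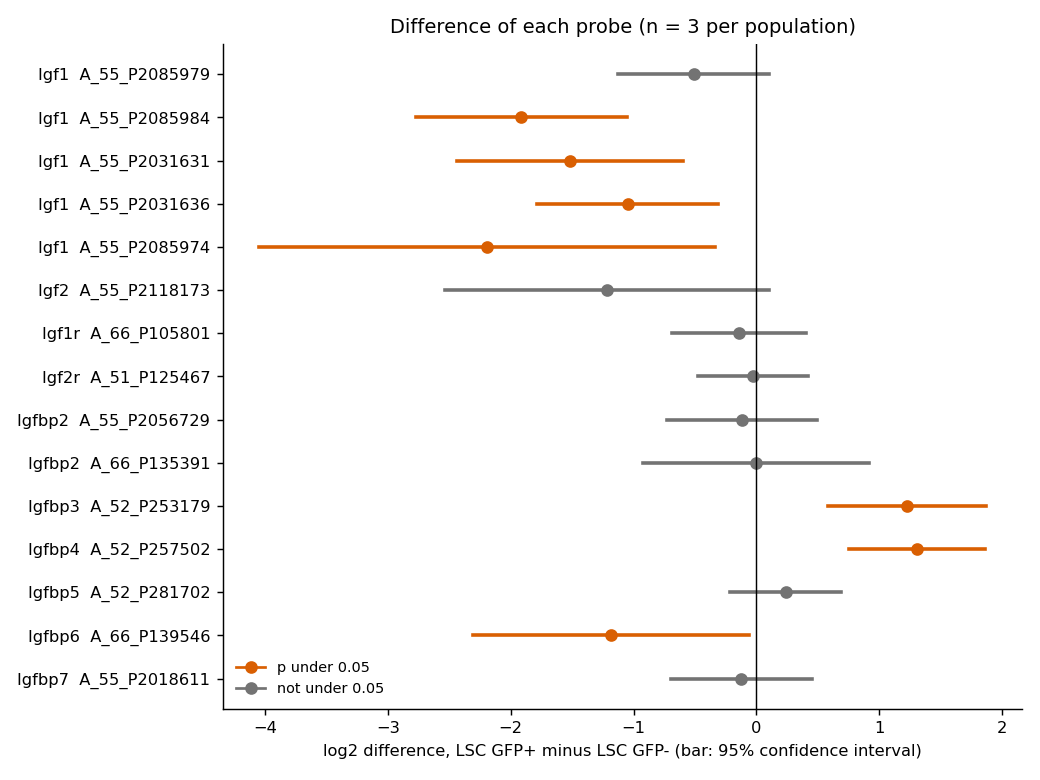
The log2 difference between LSC GFP+ and LSC GFP- (horizontal axis) for the 15 probes of the axis (vertical axis), with bars for the 95% confidence interval of the limma fit and orange for an unadjusted p under 0.05. Lower Igf1 and Igfbp6, higher Igfbp3 and Igfbp4, and intervals that hold 0 for both receptors are seen.

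The genes that act with the axis were described from a list of 41, of which 37 were tested and 8 were called, 5 lower and 3 higher in LSC GFP+ cells, beside 7.66% of all names. With the replicate block 12 of the 37 were called, beside 14.2%. The median difference of the 37 was -0.01, as over all names. Adjusted over all probes, 0 of the 37 passed with limma. Without LSC GFP+ replicate 2 the called genes were 4. With all 6 arrays required to be well above background, 7 of 35 were called, 3 higher and 4 lower. Over the whole array the count was then 2504 of 33845 probes. Htra4, called lower, was not among the 35, since it passed the filter on dim probes only through the LSC GFP- arrays. Igfbp1, Igfals and Igfbpl1, further carriers of IGFs, were well above background on 1, 4 and 0 of the 6 arrays and were not tested.

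Among the 7 proteases of the binding proteins and their inhibitors, 2 were lower and 1 was higher. Stc1, an inhibitor of PAPP-A, read -1.38, -1.53 and -0.86 in LSC GFP+ cells and -0.74, -0.34 and -0.29 in LSC GFP- cells, without overlap (log2 difference -0.80, limma adjusted p = 0.374). The related Stc2 had a difference of 0.50, in the opposite direction, and was not called, though it was with the replicate block (adjusted p = 0.247 in limma) and without LSC GFP+ replicate 1 (0.69). The serine protease Htra1 was higher by 0.78, though not with normexp background correction (0.27), and Htra4 was lower (-0.90, or -0.38 with normexp), its probe not rising well above background on 1 LSC GFP+ array. Pappa, which encodes PAPP-A and had the highest mean signal of the list, differed by -0.17 (95% confidence interval -0.73 to 0.40).

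Of the 4 genes for insulin and its receptors none was called, and Insr, the brightest, differed by 0.16 (95% confidence interval -0.31 to 0.63). Of 9 adaptors of the receptors, Grb14, which binds and inhibits the insulin receptor, was lower (-0.91, limma adjusted p = 0.390; -0.50 with normexp). Irs4, a docking protein of the IRS family, was lower as well (-0.80, limma adjusted p = 0.568), with LSC GFP+ replicate 3 at -0.71 beside LSC GFP- replicate 2 at -0.71. The call of Irs4 was lost without any 1 of 5 of the 6 arrays (LSC GFP+ replicates 1 and 2 and the 3 LSC GFP- arrays). Grb2, which links receptors to Ras, had a difference of 0.41 and was not called, but was with the replicate block (limma adjusted p = 0.289), normexp background correction, array median scaling, the methods' t-test and an intensity trend in limma. Gab1, the brightest adaptor, differed by 0.06 (95% confidence interval -0.35 to 0.48).

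Of 12 genes described from the PI3K, Akt and FoxO route, LSC GFP+ cells had 2 called higher and 0 called lower. Pik3r2, a regulatory subunit of PI3K, read -0.83, -0.93 and -0.99 in LSC GFP+ cells and -1.65, -1.69 and -1.62 in LSC GFP- cells. These replicates were tight, and the log2 difference was 0.73 (SE 0.18, limma adjusted p = 0.226), or 0.46 with normexp. Foxo1, a transcription factor that Akt holds out of the nucleus, was higher by 0.58 (limma adjusted p = 0.410). Akt2, the brightest of the list, differed by 0.02 (95% confidence interval -0.43 to 0.47).

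In the list for Igf2 mRNA and its locus, Igf2os, the transcript opposite Igf2, was called lower with a log2 difference of -0.51 (limma adjusted p = 0.586). Its call was lost without any 1 of 5 of the 6 arrays (all but LSC GFP+ replicate 3), with differences of -0.58 to -0.41, and with array median scaling or no filter on dim probes. H19, the non-coding neighbour that is imprinted together with Igf2, read 5.55, 5.76 and 6.66 in LSC GFP+ cells and 6.25, 6.27 and 6.95 in LSC GFP- cells. LSC GFP+ replicate 3 lay above LSC GFP- replicates 1 and 2. The difference was -0.50 (limma adjusted p = 0.892), lower in 3 of 3 pairs, and H19 was called with the replicate block (limma adjusted p = 0.241) and without LSC GFP+ replicate 3 (-0.83). As for Igf2, the arrays of replicate 3 were the highest of their population. The same held for Ly6a (Sca-1) and Cd52, which are not on this list. The genes for the Igf2 mRNA-binding proteins, Igf2bp1, Igf2bp2 and Igf2bp3, were not called, with differences of 0.65, 0.27 and 0.37, though Igf2bp1 was with the replicate block (limma adjusted p = 0.322) and without LSC GFP- replicate 2 (0.93), and Igf2bp3 without LSC GFP- replicate 3 (0.58).

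**Figure D4:**
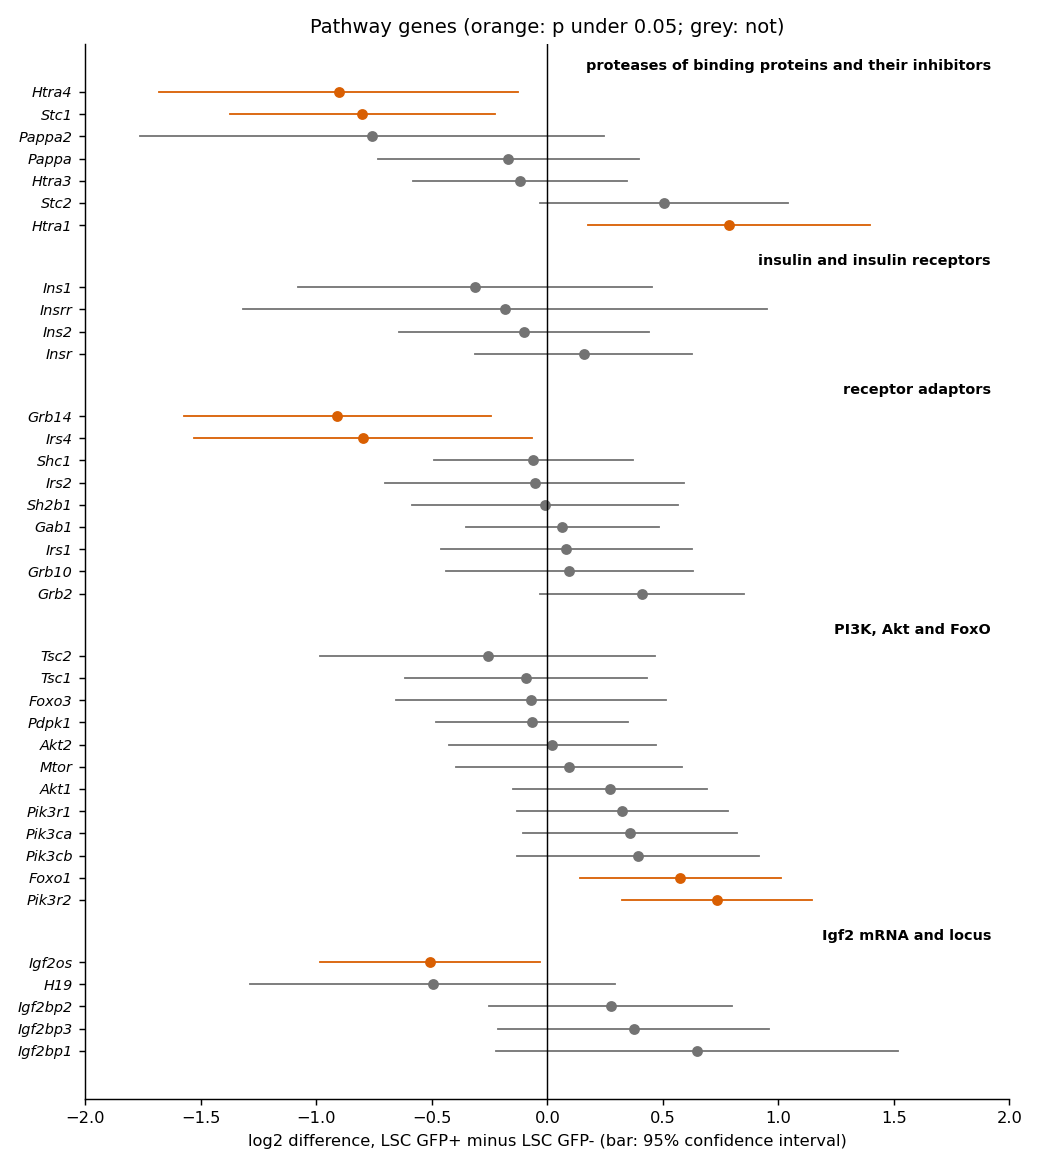
The log2 difference between LSC GFP+ and LSC GFP- (horizontal axis) of 37 genes that act with the axis (vertical axis), in 5 groups by role, with bars for the 95% confidence interval and orange for an unadjusted limma p under 0.05. The called genes are 5 lower and 3 higher, spread over 4 of the 5 groups.

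Markers of some other cell types also differed between the populations, and in bulk samples fewer cells of a type and less RNA per cell cannot be told apart. Of 11 stromal markers tested 7 were lower and 2 higher in LSC GFP+ cells, beside 4.29% of all names called lower and 3.38% higher. The median difference of the 11 was -1.21. Among the 7, Twist1 was well above background on 0 of the 3 LSC GFP+ arrays and Pdgfra on 2. Both passed the filter on dim probes only through the LSC GFP- arrays. With the replicate block Fn1, a matrix fibronectin, was also called lower (-0.38). Col1a1, a fibroblast collagen chain, differed by -2.18, and Dcn, a proteoglycan of the same cells, by 1.19. The median level of the stromal list was 0.37, 0.05 and 0.35 in LSC GFP+ replicates 1, 2 and 3, and 2.01, 0.61 and 1.50 in LSC GFP- replicates 1, 2 and 3. LSC GFP- replicate 2 was the lowest of its population. The same held for the smooth muscle and pericyte list and at 4 of the 5 Igf1 probes, though not at the brightest. It also held for Igfbp3 and Igfbp4, which were higher in LSC GFP+ cells. The summed level of the stromal list was 4.98 to 5.24 in LSC GFP+ cells and 5.03 to 6.20 in LSC GFP- cells on the log2 scale.

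Of 11 smooth muscle and pericyte markers 8 were lower and 0 higher, beside the same shares of all names, with a median of -1.51. Acta2, smooth muscle actin, was lower by 2.13 on the log2 scale (limma adjusted p = 0.140). The median level was -0.28, -0.56 and -0.09 in LSC GFP+ cells and 1.63, 0.73 and 1.30 in LSC GFP- cells, while the summed level, which Mcam dominates, was 8.65 to 8.98 and 8.59 to 9.04. Col1a1, Dcn, Fn1, Acta2 and Mcam were above background on all 6 arrays, unlike Twist1 and Pdgfra. The part of these cells in the Igf1, Igf2, Igfbp3, Igfbp4 and Igfbp6 results was not tested.

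Of the genes that mark the gate, Itga6 (CD49f) and Ly6a (Sca-1) were well above background on all 6 arrays, as were the basal markers Krt5, Krt14 and Trp63. In LSC GFP+ cells 8 of 12 basal epithelial markers were higher (median 0.73), beside 3.38% of all names, Krt14 by 1.18 and Krt5 by 0.70. Trp63 and Itga6, also on this list, were not called, with differences of 0.11 and 0.25. The summed basal level was 7.93 to 8.02 in LSC GFP+ cells and 7.50 to 7.58 in LSC GFP- cells. Of 10 luminal markers 2 were lower and 2 higher. Ptprc, which encodes the sorted-out antigen CD45, was well above background on 6 of 6 arrays and differed by -0.05. Of 7 immune markers 0 were called, or 1 with the replicate block (Cd52, -1.14, lower in 3 of 3 pairs). Pecam1 (CD31) was well above background on 5 of 6 arrays, and 1 of 6 endothelial markers was called. The median endothelial level was -2.89, -3.56 and -2.92 in LSC GFP+ cells and -2.78, -2.57 and -1.43 in LSC GFP- cells, without overlap. The summed endothelial levels overlapped, at 2.61 to 2.81 and 2.66 to 2.86. Of 6 glial and neuronal markers 0 were called (median -0.98), with the lowest array of each population in replicate 2. With the replicate block 4 of the 6 were called, each lower in LSC GFP+ cells in 3 of 3 pairs, beside 14.2% of all names in either direction. They were Nefl (-2.19), Tubb3 (-1.30), Sox10 (-0.66) and Stmn2 (-2.63). Stmn2 was well above background on 2 of the 3 LSC GFP+ arrays, with -6.29 on replicate 2. It passed the filter on dim probes only through the LSC GFP- arrays.

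**Figure D5:**
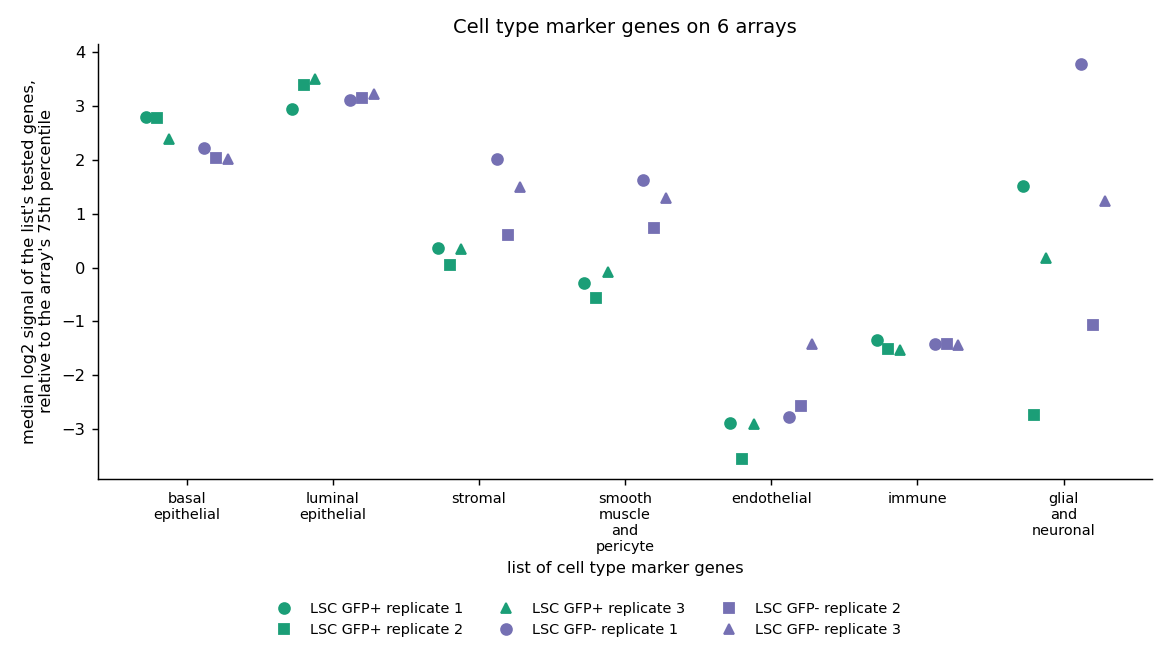
The median log2 signal of the tested genes of 7 marker lists relative to each array's 75th percentile (vertical axis; lists on the horizontal axis), for LSC GFP+ (green) and LSC GFP- (purple) samples with 1 symbol shape per replicate. The stromal, the smooth muscle and the endothelial lists are lower, and the basal list is higher, in all 3 LSC GFP+ samples than in all 3 LSC GFP- samples. For the endothelial list the nearest samples are close, -2.89 in LSC GFP+ replicate 1 and -2.78 in LSC GFP- replicate 1.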

How the data were processed

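Gene expression was measured on 6 SurePrint G3 Mouse arrays of one slide and scan, 3 for LSC GFP+ and 3 for LSC GFP-, so slide and scan could not be tested. RNA was amplified with the Ovation Pico WTA kit and labelled with Cy3. Per the file headers, Feature Extraction 11.0.1.1 made the deposited intensity values (the submitters' processing notes name 10.7.3.1): processed signals, background-subtracted, on a linear scale and not normalized between arrays. The table of the whole series holds the same deposited intensity values rounded to 3 significant digits.

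For the comparison, log2 signals were centred on each array's 75th percentile, outlier spots (123 to 154 per array; 0 among the 29 spots of the axis) were dropped and spots of a probe averaged; 0 spots were saturated, and 65.8% to 75.7% of probes per array were well above background. Tested were the probes with most of their spots well above background on every array of one population or both. The fits were made in limma 3.58.1 (R 4.3.3; lmFit, eBayes; two-sided) with Benjamini-Hochberg adjustment; the code was tested on simulated data. The number of arrays limits the precision. No source says that the samples came from separate animals, so p-values measure the spread between these samples. The study's methods name a t-test at 0.05 without correction; it and other scalings, filters, a replicate block and fits without each array were run as alternatives.

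Deviations from the population means correlated across probes at 0.43, 0.28 and 0.67 for samples with the same replicate number in the labels. Each was over 0.1, so these samples were treated as pairs in an alternative fit with the pair as a block. The main fit did not use the pairs. SEs, confidence intervals and calls are from the main fit unless another setting is named. Of the 6 other combinations 1 exceeded 0.1, at 0.22 (replicate 1 of LSC GFP+, replicate 2 of LSC GFP-). The members, the pathway and marker lists and the tests were chosen with earlier results of these data known. Named were all probes of the members, the pathway genes called at their brightest probe, the brightest gene of each pathway list and markers of the sort. Of the brightest genes of the marker lists, Mcam, Dcn and Trp63 are in the text; the others, Kdr, Elavl4, Csf1r and Cd24a, were not called. Col1a1, Fn1, Twist1, Pdgfra, Cd52, Sox10, Tubb3, Stmn2, Nefl, Stc2, Grb2 and the Igf2bp genes were named after their values were seen. Probe sequences are from the scanner files. Beside the 41 genes of the pathway list, 2 further genes are not reported here. Position within exons was not analysed here.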

Additional observations from a re-analysis of the deposited data

How the results depend on the processing

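The differences of Igfbp3, Igfbp4 and 3 Igf1 probes (A_55_P2085984, A_55_P2031631, A_55_P2031636) kept their direction and their call under every alternative run. With the replicate block the probes called on the whole array rose from 2925 to 5480 and the members called from 3 to 5; Igf1 at its brightest probe (-0.51) and Igf2 (-1.22) then passed, and no other member changed its call. Averaged over its 5 probes Igf1 passed (-1.44), and with quantile normalization Igf2 passed (-1.28). Igfbp6 lost its call with quantile normalization (-1.05), array median scaling (-1.11), no filter on dim probes (-1.18) and the methods' t-test (-1.18), kept it with normexp at -0.52, and was not tested when all 6 arrays had to be above background. The difference between probes of Igf1 for A_55_P2085984 lost its call with normexp (-0.84), quantile normalization (-1.35) and without any 1 of 4 arrays. The Igf1 probe A_55_P2085974 lost its call with the methods' t-test and kept it with normexp at -0.70. Of the 8 pathway genes called, Grb14, Pik3r2 and Stc1 kept their call under every alternative fitted to their probe and without each array; Foxo1, Htra1, Htra4, Igf2os and Irs4 lost it under at least 1. Igf2r turned to 0.039 under array median scaling, and the second Igfbp2 probe (A_66_P135391) to 0.057 with quantile normalization and 0.066 with array median scaling, both uncalled. Array median scaling moved the median of all probes by 0.07. It turned the split of calls on the whole array from 1250 higher and 1675 lower to 1471 and 1299, quantile normalization to 1646 and 1592, and the methods' t-test to 1579 and 1219.

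Without 1 array at a time, calls were 2077 to 4049 on the whole array, 2 to 4 among the 10 genes, 5 to 8 among the 15 probes and 4 to 9 among the pathway genes, the 4 without LSC GFP+ replicate 2. The differences ranged from -0.67 to -0.28 for Igf1 at its brightest probe, -1.75 to -0.62 for Igf2 (called without LSC GFP+ replicate 3), -1.59 to -0.69 for Igfbp6, -0.30 to 0.059 for Igf1r, -0.12 to 0.044 for Igf2r, -0.34 to 0.053 for Igfbp2, -0.41 to 0.28 for its second probe and -0.33 to 0.017 for Igfbp7. The differences between Igf1 probes ranged from -1.98 to -1.004 for A_55_P2085984, -1.59 to -0.65 for A_55_P2031631, -0.95 to -0.21 for A_55_P2031636 and -2.39 to -0.73 for A_55_P2085974, those for A_55_P2031631 and A_55_P2031636 passing without LSC GFP- replicate 2. The cause of these changes was not tested. Signal over background limits Igfbp6 and the Igf1 probe A_55_P2085974.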
